A study of Caenorhabditis elegans with 4 samples.

Results

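Of the 12797 peaks in the pooled UNC-39 list, 1865 were X chromosome peaks outside promoters. That list is unfiltered and holds peaks and background, so an entry in it is not by itself evidence of binding. Only 45 of its nuclear peaks had q at or under 0.05, with q read as described below. The 1865 peaks, called members here, were chosen by position alone. The summit lay on the X chromosome and at no point from 1000 bp upstream to 200 bp downstream of any protein-coding transcript start. The X chromosome held 2529 pooled peaks in all, so 664 fell in promoters, and the nuclear chromosomes together held 12773, the other 24 peaks being mitochondrial. The members made up 14.6% of nuclear peaks. The other nuclear peaks were 7102 autosomal peaks outside promoters and 3142 autosomal promoter peaks.

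Binding was measured by ChIP-seq, in which sheared chromatin is pulled down with an antibody and its DNA is sequenced, in whole L3 larvae of Caenorhabditis elegans. Strain OP186 was used for all 4 biological replicates, with the genotype unc-119(ed3) III and the integrated transgene wgIs186. The transgene encodes UNC-39 tagged with GFP-FLAG at the C-terminal end, so what was pulled down as tagged protein came from a transgene and not from the native gene. Both sexes were pooled, the antibody was labelled unc-39, shearing was by microtip sonication, and all 4 replicates formed 1 group with no untreated or mutant group beside it. A whole larva mixes every tissue, and peak lists hold no expression values with which to check cell types. A control experiment named in the labels was not analysed here.

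UNC-39 is a homeodomain transcription factor of the sine oculis family, known in C. elegans for roles in mesoderm and in the guidance of migrating cells and axons. The X chromosome of this worm is also the target of dosage compensation, in which a condensin-containing complex binds the X chromosomes of hermaphrodites and lowers their transcription. That complex is recruited at sites on X that carry clustered copies of a short motif with the core GCGCAGGG, after which it spreads. tRNA genes are a further known class of place in worm chromatin, with an internal promoter element, the B box, that RNA polymerase III factors bind.

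The sequences of the strongest peaks are shown first, because short strings shared among them are the pattern on which much of the account below turns. Each is the stretch from 100 bp before to 100 bp after the summit on the forward strand of X in the RefSeq sequence of WBcel235, the assembly also called ce11. Here and below, beside names the gene with the nearest protein-coding start, which can be far off. For K02D3.1 that start was 6068 bp away. Capitals mark CGCGCAGGG with up to 1 mismatch and exact GCGAAGGG, on either strand, so that their reverse complements also appear in capitals. The 6 peaks with the highest signal among the members come first, whether or not they carried GCGCAGGG. They are followed by 3 weaker ones picked from those that did, and other weaker carriers, such as the peak in pks-1, are not shown.
mom-1 intron, chrX:6296474-6296674: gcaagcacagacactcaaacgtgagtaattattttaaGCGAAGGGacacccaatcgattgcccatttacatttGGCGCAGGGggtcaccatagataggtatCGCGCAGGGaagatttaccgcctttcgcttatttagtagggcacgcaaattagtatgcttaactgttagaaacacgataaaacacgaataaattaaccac
Beside F55G7.5, chrX:11937466-11937666: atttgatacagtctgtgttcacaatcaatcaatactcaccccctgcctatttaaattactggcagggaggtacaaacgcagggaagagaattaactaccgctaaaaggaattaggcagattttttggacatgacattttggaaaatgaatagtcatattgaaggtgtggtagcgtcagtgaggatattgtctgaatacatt
Beside W02H3.3, chrX:11094064-11094264: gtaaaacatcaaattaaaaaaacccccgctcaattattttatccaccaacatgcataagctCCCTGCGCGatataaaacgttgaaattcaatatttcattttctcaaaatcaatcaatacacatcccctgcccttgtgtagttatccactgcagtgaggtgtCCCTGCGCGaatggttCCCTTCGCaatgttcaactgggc
Beside ZK899.6, chrX:9465736-9465936: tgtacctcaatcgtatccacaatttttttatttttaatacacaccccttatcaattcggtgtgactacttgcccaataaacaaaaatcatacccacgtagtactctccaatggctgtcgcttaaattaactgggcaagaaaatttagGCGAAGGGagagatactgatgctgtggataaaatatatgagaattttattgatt
Beside K02D3.1, chrX:13700739-13700939: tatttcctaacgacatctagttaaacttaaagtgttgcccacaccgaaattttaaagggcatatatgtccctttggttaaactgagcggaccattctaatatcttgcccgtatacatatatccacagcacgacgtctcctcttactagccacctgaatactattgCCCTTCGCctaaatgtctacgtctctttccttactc
Beside F22H10.2, chrX:16682004-16682204: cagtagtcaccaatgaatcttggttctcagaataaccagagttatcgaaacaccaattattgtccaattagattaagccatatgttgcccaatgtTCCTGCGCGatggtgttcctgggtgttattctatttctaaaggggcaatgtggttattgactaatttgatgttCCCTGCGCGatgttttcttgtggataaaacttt
Beside gtr-1, chrX:806591-806791: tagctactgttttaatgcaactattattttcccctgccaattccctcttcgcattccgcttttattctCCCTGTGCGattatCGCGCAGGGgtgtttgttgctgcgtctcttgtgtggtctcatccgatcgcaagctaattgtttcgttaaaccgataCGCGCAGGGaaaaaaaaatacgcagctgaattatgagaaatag
Upstream of xol-1, chrX:8036397-8036597: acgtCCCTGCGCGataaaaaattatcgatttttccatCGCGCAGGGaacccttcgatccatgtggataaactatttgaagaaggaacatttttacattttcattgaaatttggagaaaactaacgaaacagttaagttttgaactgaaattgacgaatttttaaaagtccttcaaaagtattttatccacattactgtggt
Beside F20B6.9, chrX:4209179-4209379: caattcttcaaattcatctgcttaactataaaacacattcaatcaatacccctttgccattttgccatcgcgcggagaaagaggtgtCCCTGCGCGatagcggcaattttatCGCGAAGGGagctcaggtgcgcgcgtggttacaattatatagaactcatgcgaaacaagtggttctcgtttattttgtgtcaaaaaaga

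The peak in a tRNA gene beside ets-5 is shown with a different marking, since it carried neither string. Here capitals mark GGTTCGA on either strand, the conserved core of the B box, in the gene for tRNA-Ile named C42D8.t1.
Beside ets-5, chrX:5085549-5085749: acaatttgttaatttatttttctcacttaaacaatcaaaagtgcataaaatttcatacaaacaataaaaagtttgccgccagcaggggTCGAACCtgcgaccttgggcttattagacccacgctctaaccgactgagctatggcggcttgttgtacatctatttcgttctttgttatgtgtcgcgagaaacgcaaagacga

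Most X chromosome peaks outside promoters were of ordinary strength, while a handful were the strongest nuclear peaks of the study. Signal is the authors' enrichment value for a peak, used here only to rank peaks within a list. Over all 1865 members the median signal was 19.5, with a range from 16.4 to 95.5, against a median of 19.6 for all nuclear peaks. The median member sat at percentile 49.6 of nuclear peaks (95% interval of the median 47.6 to 51.9). Autosomal peaks outside promoters sat at 48.5, autosomal promoter peaks at 52.3 and X promoter peaks at 55.2. The members were therefore close to the autosomal peaks of the same kind in the middle of the distribution.

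At the top of the list the picture was different. All 5 of the 5 strongest nuclear peaks were members, as were 8 of the strongest 20, 15 of the strongest 50 and 25 of the strongest 100. The share fell to 20% of the strongest 500 and 18% of the strongest 1000, against 14.6% of the whole list. The strongest members had signals of 95.5, 94.7, 91.0, 90.0 and 87.2, then 68.0 for the next. The strongest autosomal promoter peak reached 84.5, the strongest X promoter peak 71.1 and the strongest autosomal peak outside promoters 71.0. The plot of signal by order shows this shelf of 5 peaks and the drop after it.

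**Figure D1:**
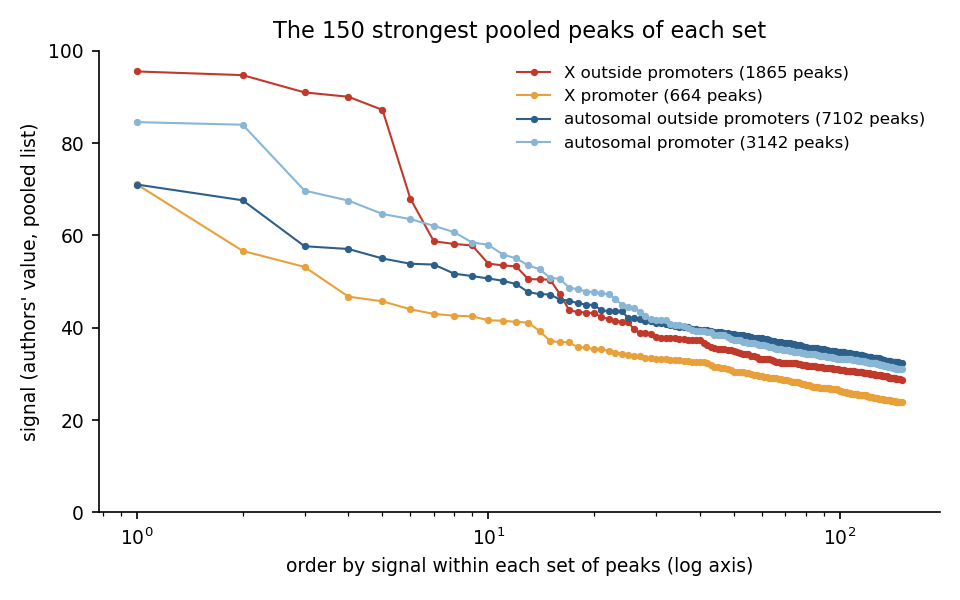
Signal of the 150 strongest pooled peaks of each of 4 sets, against their order within the set on a log axis; each point is 1 peak and there is no error bar, since the pooled list holds 1 value per peak. The first 5 X peaks outside promoters lie between 87.2 and 95.5, above every other nuclear peak, and the sixth drops to 68.0. The sets differ in size, so the right-hand parts of the curves are not comparable as levels.

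The thresholded list of the study, made from how alike the replicates ranked peaks, is called the reproducible list here. It held 110 peaks, 86 of them nuclear, or 0.673% of all nuclear pooled peaks. All 86 were also the 86 strongest nuclear peaks by pooled signal, so every count of reproducible peaks here restates the signal ranking and is no separate measure of how the replicates compare. Of the members, 21 were in it, which is 1.13% (exact 95% interval 0.698 to 1.72%). The matching shares were 0.380% of autosomal peaks outside promoters (27 peaks), 0.923% of autosomal promoter peaks (29) and 1.36% of X promoter peaks (9). By chromosome, peaks outside promoters were in the reproducible list at 1.13% on X and at 0.227 to 0.759% on the 5 autosomes. Reading the deposited q column as −log10 of q, 13 members had q at or under 0.05, of 45 nuclear peaks that did. These intervals cover counting over the peaks of a single pooled list and say nothing of the spread between cultures.

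The replicates were then taken one at a time, each with its own list and ranks. X peaks outside promoters numbered 4498, 4526, 1653 and 3992 in replicates 1 to 4, or 15.0, 15.1, 12.5 and 13.5% of nuclear peaks. Replicate 3 had by far the shortest list, with 13195 nuclear peaks against 29501 to 29980 in the others. The median percentile of signal of X peaks outside promoters exceeded that of autosomal peaks outside promoters by 1.71, 0.562, 2.20 and 0.863 points. The mean difference was 1.33 points (SD 0.755, n = 4), positive in 4 of 4 replicates, with a p of 0.13 in a two-sided exact sign-flip permutation test. With 4 replicates 0.13 is the smallest p that test can give, so none of the replicate comparisons here can reach 0.05.

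When the 500 highest-ranking nuclear peaks per replicate were taken, 83, 78, 69 and 76 of them were X peaks outside promoters. These shares of 16.6, 15.6, 13.8 and 15.2% exceeded the share of each whole list by 1.59, 0.503, 1.27 and 1.67 points. The mean excess was 1.26 points (SD 0.533, n = 4; exact sign-flip permutation p = 0.13). Higher in the lists the replicates parted. The strongest 20 held 8, 9, 3 and 6 X peaks outside promoters, and the strongest 100 held 20, 21, 9 and 24. In replicate 3 the share of the strongest 100 was thus 9%, under its share of 12.5% of the whole list, and the mean excess at 100 peaks was 4.46 points (exact permutation p = 0.25). The best-placed X peak outside promoters ranked 1, 1, 5 and 3 in replicates 1 to 4.

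**Figure D2:**
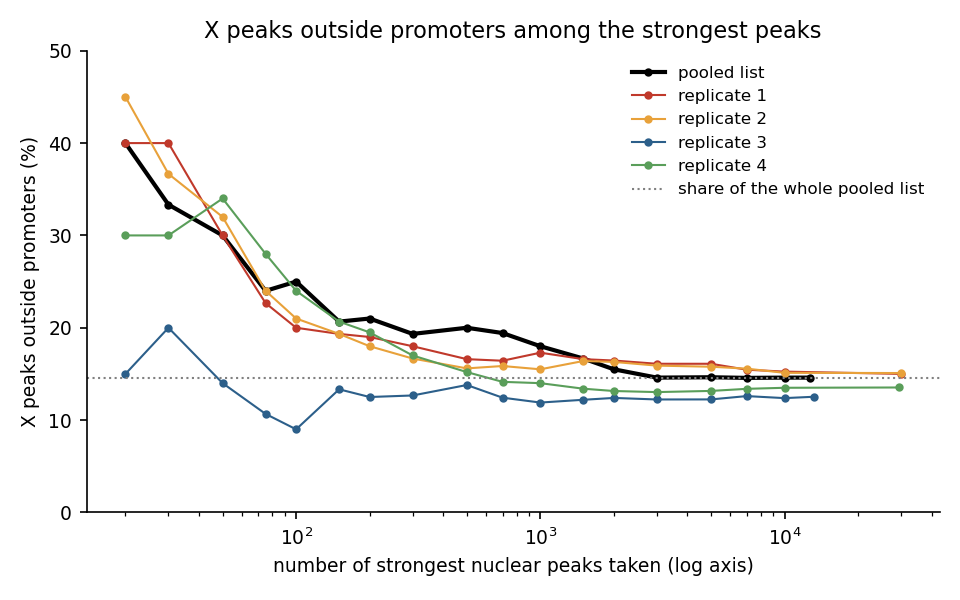
Percent of X peaks outside promoters among the highest-ranking nuclear peaks, for the pooled list and the 4 replicate lists, against how many peaks are taken (log axis); the dotted line is the 14.6% of the whole pooled list. The pooled list and replicates 1, 2 and 4 stand at 30 to 45% among the strongest 20, and replicate 3 stands at 15%.

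Replicate support for single members was thin except at the top. A member counted as found in a replicate if any peak of that list overlapped it by at least 1 bp. Replicates 1 to 4 found 70.4, 75.2, 20.9 and 44.3% of members. All 4 lists held 115 members (6.17%, interval 5.12 to 7.36%), while the share of all nuclear peaks was 5.63% and that of autosomal peaks outside promoters 4.22%. No replicate list held 30 of the members. The members' share found in all 4 was close to the background of all nuclear peaks.

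The 1000 highest-ranking nuclear peaks of every replicate overlapped 6 members, or 0.322% of members (interval 0.118 to 0.699%), against 0.172% of all nuclear peaks and 0.127% of autosomal peaks outside promoters. They were the peaks of mom-1, W02H3.3, ZK899.6, K02D3.1 and F22H10.2, plus a weaker peak of signal 25.4 that overlaps the K02D3.1 peak and shares its replicate peaks, so they stood for 5 places. The autosomal peaks strong in every replicate also included overlapping pairs of this kind, and no share above was merged into places. Of the 30 strongest members, 19 were found in all 4 replicates. Signal of members found in both lists of a pair correlated weakly, with a mean Spearman rho of 0.0991 over the 6 pairs of replicates (SD 0.0852, range 0.00985 to 0.252). Over the 100 strongest members the mean rho was 0.221. These correlations run over peaks of the pooled list, which are not independent replicates.

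The strongest member lay in an intron of mom-1, which encodes the Porcupine-type acyltransferase needed for Wnt secretion, at chrX:6296392-6296755. It ranked 16, 1, 195 and 40 among nuclear peaks in replicates 1 to 4. All 4 ranks were within the top 200, and the lowest placed was in replicate 3. The nearest protein-coding start was that of cest-16, 3368 bp away. Inside the peak were 2 copies of GCGCAGGG and 1 of GCGAAGGG, and the closest GCGCAGGG lay within 10 bp of the summit.

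The next 4 members were intergenic. The peak beside F55G7.5 (chrX:11937384-11937747, signal 94.7) ranked 1, 9, 1439 and 21. It was the strongest nuclear peak of replicate 1 yet stood outside the top 1000 of replicate 3. It carried neither 8-base string, although its sequence above has cgcaggg after an a. The peak beside W02H3.3 (chrX:11093982-11094345) ranked 23, 6, 58 and 4, within the top 100 of every replicate, and carried 2 copies of GCGCAGGG and 1 of GCGAAGGG. The peak beside ZK899.6 (chrX:9465654-9466017) ranked 50, 11, 487 and 3, and the one beside K02D3.1 (chrX:13700657-13701020) ranked 9, 10, 484 and 10. Each of these last peaks held 1 GCGAAGGG and no GCGCAGGG, and in each replicate 3 gave the lowest place.

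The sixth member, at chrX:16681922-16682285 beside F22H10.2, ranked 139, 12, 123 and 9 and carried 1 GCGCAGGG. The seventh (chrX:5085467-5085830, signal 58.7) had its summit in the tRNA-Ile gene C42D8.t1, 1123 bp upstream of ets-5, an ETS-family transcription factor gene. It ranked 2139, 232, 10563 and 45, so its support came from replicates 2 and 4. The eighth (chrX:10766170-10766533, signal 58.1) lay 2930 bp upstream of sma-9, the Schnurri homologue of the BMP-like body size pathway. Its ranks were 154, 46, 1446 and 36. The ninth, in an intron of F46H5.3, ranked 63, 4, 4585 and 25907, and the tenth (chrX:806509-806872, signal 53.9), beside gtr-1, ranked 488, 263, 207 and 8736. Both were far down the list of replicate 4 and had 2 or more replicates within the top 500.

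The members from the eleventh to the twentieth had signals from 43.2 to 53.5. The exonic peak in pks-1, a polyketide synthase gene, ranked 7731, 2511, 231 and 24 and carried both strings once. The intronic peak in daf-12, the nuclear hormone receptor gene of the dauer and developmental timing pathways, ranked 313, 9417, 633 and 125. The rest lay beside M02F4.2, dct-1, F46G11.4, C04A11.5, C30E1.4, F56C3.1 and egrh-1 and in an intron of hlb-1. The start of C30E1.4 was 5920 bp away and that of egrh-1 4776 bp. In 3 of these 10, those beside dct-1 and F46G11.4 and in hlb-1, 1 replicate held no overlapping peak. By position the 20 strongest members were 9 intergenic, 6 near a non-coding gene, 4 intronic and 1 exonic.

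**Figure D3:**
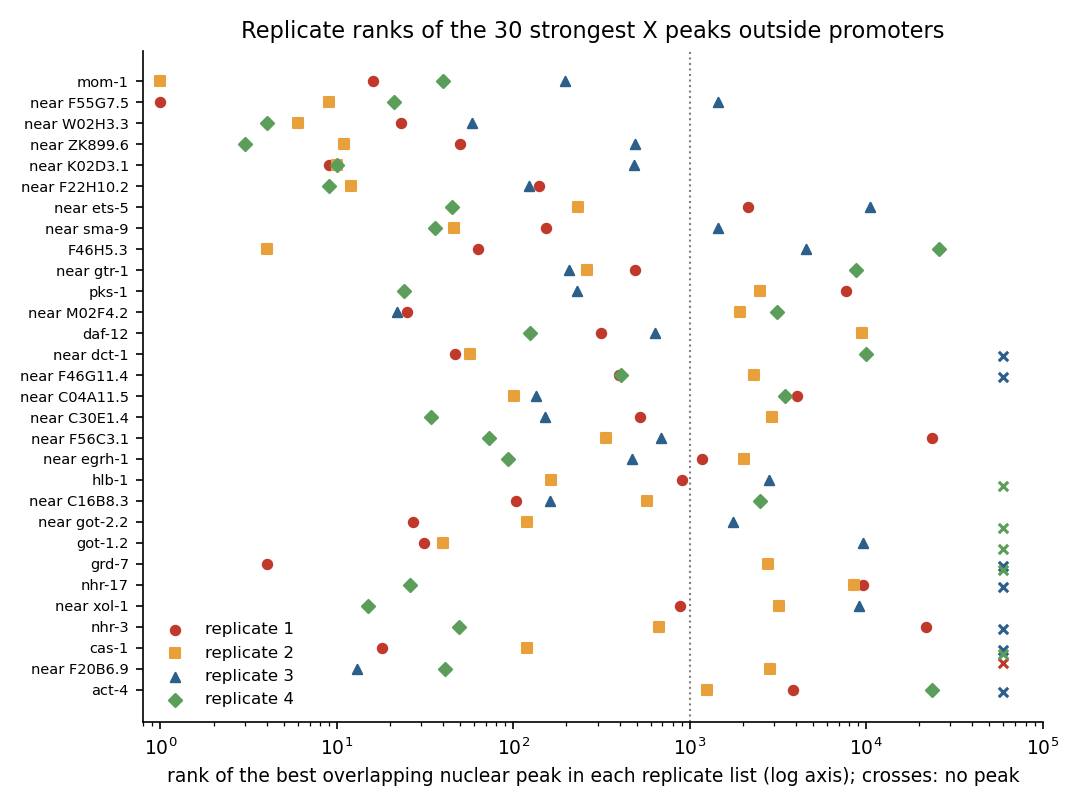
Rank in each replicate of the best nuclear peak that overlaps each of the 30 strongest X peaks outside promoters, on a log axis, in order of pooled signal from the top; crosses at the right edge mark a replicate with no overlapping peak and the dotted line marks rank 1000. The first 6 peaks keep their markers to the left of the line apart from 1439 in replicate 3 for the F55G7.5 peak, and among the other 24 the ranks of the replicates that hold a peak spread over 100-fold in 12.

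Matches to the recruitment core of the dosage compensation complex were rare over all members and concentrated in the strongest. GCGCAGGG, searched on both strands within 50 bp of the summit, was present in 0.172% of all nuclear pooled peaks. It was present in 4 of the 30 strongest members (13.3%), 5 of the strongest 100 (5%, interval 1.64 to 11.3%), 7 of the strongest 300 and 8 of all 1865 (0.429%). In equally wide windows whose centres were 300 bp away on both sides, it was absent from the strongest 300 members. Autosomal peaks outside promoters had it in 7 of 7102 (0.0986%). Counted over the whole 364 bp peak, it was in 7 of the 30 strongest members and 17 of all, against 1 of the 30 strongest autosomal peaks outside promoters and 18 of all.

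The second string, GCGAAGGG, differs from the core at a single base and was added after the sequences above had been seen, so its counts describe these peaks and support nothing. It occurred in the whole peak of 6 of the 30 strongest members, 7 of the strongest 100 and 16 of all. The 100 strongest autosomal peaks outside promoters had 0. Counts of either string include it and carry the same limit. Either string was in 5 of the 6 strongest members, 9 of the strongest 30 (30%), 14 of the strongest 100 and 28 of all (1.50%). For autosomal peaks outside promoters the counts were 1 of 6, 1 of 30, 1 of 100 and 44 of 7102 (0.620%). X promoter peaks had either string in 5 of their strongest 30, and in 10 of all 664 (1.51%), about the share of the members.

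**Figure D4:**
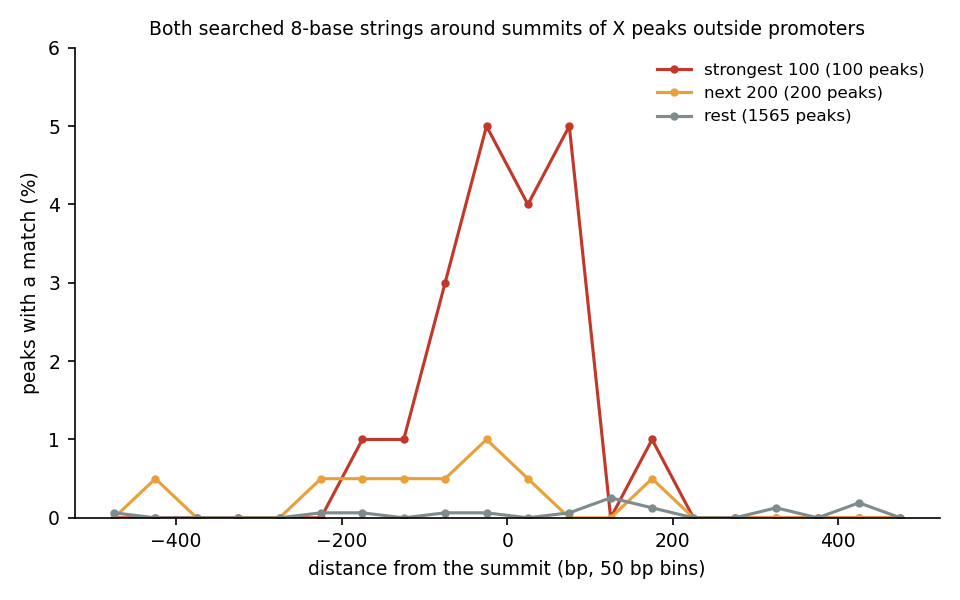
Percent of X peaks outside promoters with GCGCAGGG or GCGAAGGG starting in each 50 bp bin around the summit, for the members in 3 ranges of signal order. Among the 100 strongest the percent is 3 to 5% in the 4 bins within 100 bp of the summit and 0% beyond 200 bp, while the 1565 weakest stay under 1% throughout. GCGAAGGG was added after the sequences had been seen, so the curves describe these peaks and support nothing.

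The same question was asked from the side of the genome. Outside promoters, X held 64 copies of GCGCAGGG, or 4.62 per Mb, and the autosomes held 164, or 2.72 per Mb. X promoters held 17, or 4.40 per Mb, so the higher density was not limited to sequence outside promoters. Of the X copies, 22 lay in a pooled peak (34.4%, interval 22.9 to 47.3%), while the summed width of members is 4.90% of those bases. Of the autosomal copies, 18 lay in a pooled peak (11.0%, interval 6.64 to 16.8%), where the summed width of peaks is 4.29%. Of the X promoter copies, 3 of 17 lay in a pooled peak (17.6%, interval 3.80 to 43.4%). For GCGAAGGG the shares in a pooled peak were 13.7% outside promoters on X, 21.7% in X promoters and 6.72% outside promoters on the autosomes. That string was chosen after the sequences of the strongest members had been seen, so its shares are description only. Copies of GCGCAGGG outside promoters and in reproducible peaks numbered 8 on X and 1 on the autosomes. Copies that stand close together share a peak, so they are not independent counts.

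The replicates gave the same order one by one. The 1000 highest-ranking peaks of replicates 1 to 4 held 11, 7, 12 and 13 of the 64 X copies, or 17.2, 10.9, 18.8 and 20.3%. Of the 164 autosomal copies they held 5, 1, 1 and 2. The X share was higher in 4 of 4 replicates, by a mean of 15.4 points (SD 4.02, n = 4; two-sided exact sign-flip permutation p = 0.13, the smallest possible). X promoters had 2 of their 17 copies (11.8%) in those peaks in each of the 4 replicates, too few copies to set them beside either group. Among the 100 strongest X peaks outside promoters of each replicate's own list, GCGCAGGG was within 50 bp of 2, 2, 5 and 6 summits against 0, 0, 0.5 and 0 in the mean of both flanks, a mean difference of 3.63 points (SD 1.97; exact permutation p = 0.13).

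Strings known for sine oculis-type proteins did not show this pattern. TGATAC was within 50 bp of the summit in 0 of the 30 strongest members, 2 of the strongest 100 and 69 of all, against a mean of 72 in the flanking windows. TCAGGTTTC with up to 1 mismatch was in 0 of the 30 strongest, 0 of the strongest 100 and 47 of all, against 55 in the flanks. No match says only that these letters were not in the window. GAGAGA was in 9 of the 100 strongest members, against 7 in the flanks. It was in 26 of the 100 strongest autosomal peaks outside promoters, against 9.5. CGTCTC was concentrated at strong summits in both sets. It was in 12 of the 100 strongest members against 1.5, and in 17 of the autosomal ones against 4. Of the 30 strongest members 7 had it, against 1, and of all members 75 (4.02%), against 55.

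Base composition moved with strength. Within 50 bp of the summit, the 30 strongest members had a median GC content of 48.0%, against 34.2% in flanking sequence. GC content was higher at the summit than in the flank in 27 of 30. Over all members the medians were 40.6 and 36.1%. Autosomal peaks outside promoters had the same summit median of 40.6%, with 49.5% in their 30 strongest. Repeat-masked bases averaged 17.4% of the summit window in members and 21.3% in autosomal peaks outside promoters. The part of GC content or repeats in the ranking was not tested.

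By position, 646 members had their summit in an exon (34.6%), 595 in an intron (31.9%), 259 close to a non-coding gene (at most 1000 bp away, 13.9%) and 365 in other intergenic sequence (19.6%). Exons make up 25.6% of X bases outside promoters. On the autosomes 41.2% of peaks outside promoters were exonic, where exons make up 30.2% of such bases. Exonic members were the weakest class, at a median percentile of 42.6, with 1 reproducible peak, the one in pks-1. Intronic members sat at 52.9 with 4 reproducible, members near a non-coding gene at 58.9 with 7, and intergenic members at 50.7 with 9. The reproducible share of intergenic members was 2.47%, and that of intergenic autosomal peaks 0.217% (3 of 1382). The medians of both were 50.7, so these sets differed at the top of the range and not in the middle. A high share was not particular to intergenic X peaks. Near non-coding genes it was 2.70% on X and 1.98% on the autosomes (9 of 455).

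**Figure D5:**
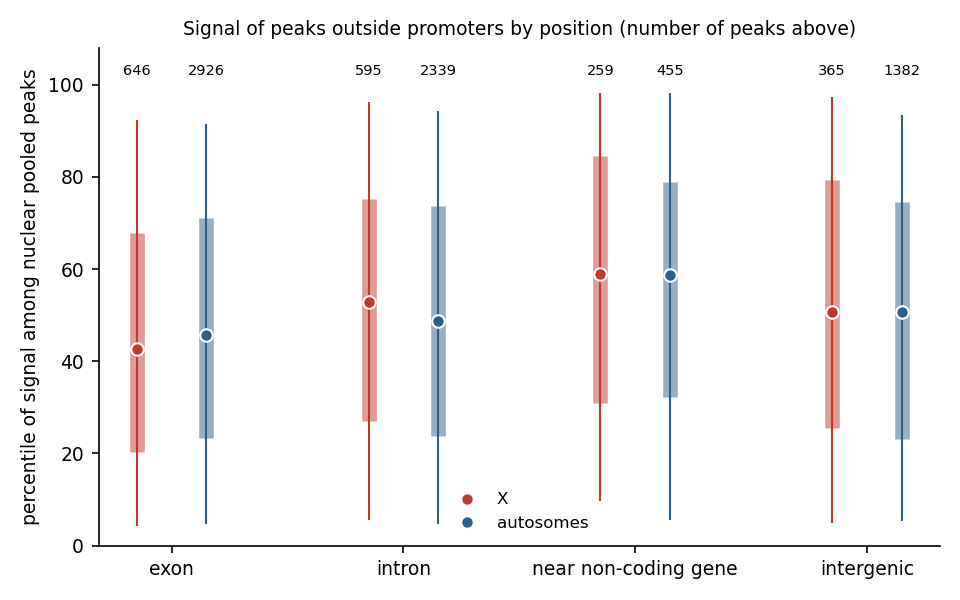
Percentile of signal among nuclear pooled peaks for peaks outside promoters on X and on the autosomes, by position of the summit. Points are medians, thick bars run from the 25th to the 75th percentile of the peaks, thin lines from the 5th to the 95th, and the numbers above count the peaks. In both sets exons have the lowest median and sequence near non-coding genes the highest, at 58.9 on X and 58.7 on the autosomes.

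Of the members near a non-coding gene, 211 were nearest to an unclassified ncRNA, 32 to a tRNA gene, 10 to a miRNA, 3 to a lincRNA, 2 to a snoRNA and 1 to a snRNA. Members of any class with their summit inside a tRNA gene numbered 30 of 1865, among 276 X tRNA genes, and had a median percentile of 85.5. The 32 autosomal counterparts, of 7102 autosomal peaks outside promoters, had a median of 79.2. In the reproducible list were 2 of the 30 and none of the 32. The 2 were the tRNA-Ile peak beside ets-5 and a tRNA-Leu peak (C04A11.t1) beside C04A11.5 that ranked 4074, 101, 134 and 3476. These 30 peaks covered genes of 16 tRNA identities, most often tRNA-Gly and tRNA-Thr with 4 each, and 6 of them were found in all 4 replicates. The B box core GGTTCGA was near the summit of 29 of all members (1.55%), against a mean of 15.5 in the flanks. All nuclear pooled peaks had it at 1.39%, so the full set of 1865 members was close to that background. The strongest members had it more often, in 3 of the strongest 30, 5 of the strongest 100 and 15 of the strongest 300. Their flanks had means of 0.5, 1.5 and 2.5. The matching counts for the strongest autosomal peaks outside promoters were 0 of 30, 1 of 100 and 7 of 300.

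Along X, the left, middle and right parts of equal length held 636, 613 and 616 members and 7 reproducible ones each. Full 1 Mb bins held 85 to 131 members with a median of 105. The density of 134.6 members per Mb of sequence outside promoters compared with 105.8 to 126.3 on the autosomes. Reproducible members were 35.2 to 1841 kb apart, with a median gap of 780 kb. The median member lay 1.97 kb from the nearest protein-coding start (quartiles 1.18 and 3.28 kb), and 190 lay over 5 kb away.

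Around the borders of the promoter window the values were as follows. The 65 members from 1001 to 1200 bp upstream of a start had a median percentile of 47.3, and the 69 X promoter peaks from 801 to 1000 bp upstream one of 48.3. On the downstream side the 86 members at 201 to 400 bp had 46.2, and the 140 promoter peaks at 1 to 200 bp had 52.5.

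Exons and introns of 824 of the 2727 protein-coding genes on X (30.2%) held the summit of at least 1 member, 1241 members in all. Host genes were longer, with a median of 4.43 kb against 2.01 kb for the other genes. The part of gene length in the counts per gene was not tested. The genes with the most members were lin-14 with 12, daf-12 with 11, nhr-27 with 10 and F54G2.1 with 9, followed by F49E2.5, gap-2 and pks-1 with 7 each. lin-14 encodes a nuclear protein of the heterochronic pathway that sets larval stage identity. Its strongest member, an intronic peak of signal 35.1, ranked 87, 627, 4638 and 1434. nhr-27 spans 102.8 kb, and its members reached only 22.6.

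Gene lists were read as hosts of members among the genes on X. The lowest signal of a member was 16.4, and members near that value can be background. All X protein-coding genes had 30.2% hosts and members at a median percentile of 47.9. Among dosage compensation and sex determination genes 5 of 7 were hosts, with 10 members at a median of 56.6, none reproducible. nhr-1, a nuclear receptor gene, had the strongest of these at 30.9, followed by ceh-39 at 25.4, fox-1 at 24.7 and sdc-2, whose protein directs the dosage compensation complex to X, at 20.4. Those 10 members were of middling strength, and their ranks were missing in at least 1 replicate for each of the 4 genes' strongest peaks. The lists' genes were long, with a median of 6.77 kb for this one against 2.55 kb for all.

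The strongest member tied to that list lay outside any gene of it. It was 4816 bp upstream of xol-1, the switch gene of sex determination, at chrX:8036315-8036678 with a signal of 39.6, and it was singled out after its values were seen. Its ranks were 877, 3187, 9139 and 15, so replicate 4 placed it among the strongest peaks and replicate 3 far down its list. It carried 2 copies of GCGCAGGG, both in the sequence above. It was not in the reproducible list. The F20B6.9 peak, also chosen after its values were seen, had 1 copy of each string and ranked 2838, 13 and 41 in replicates 2 to 4 with no peak in replicate 1.

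In the list of sine oculis network and mesoderm genes, the one closest to the known roles of UNC-39, 2 of 7 genes on X were hosts. They were egl-17, an FGF gene, at 18.5 and vab-3, a Pax6 gene, at 16.5, with a median percentile of 20.4. Of the homeobox genes 8 of 20 were hosts, led by vab-15 at 33.3 and then ceh-39, ceh-14 at 20.3 and ceh-37 at 20.1. Of the Wnt genes 3 of 4 were hosts, with 5 members at a median of 30.5. mom-1 was their strongest by far, ahead of vang-1 at 24.4 and lin-18 at 18.0.

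Neuronal and axon guidance genes on X hosted members in 17 of 27, with 46 members at a median percentile of 66.2. The strongest were in unc-115, an actin-binding protein gene of axon guidance, at 31.7, rig-3 at 29.0, the calcium channel gene unc-2 at 27.5 and slt-1, the Slit guidance ligand gene, at 25.7. unc-115 held 5 members, of which 4 were found in all 4 replicates. Its strongest ranked 3733, 9728, 1516 and 4477, so it was found in every replicate without being strong in any. Body wall muscle genes were hosts in 4 of 14, led by the actin gene act-4 at 38.1, and then tnt-3 at 19.5, let-2 at 18.3 and mup-2 at 16.5.

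Epidermis, cuticle and body size genes were hosts in 10 of 13, with 24 members at a median of 63.1. The strongest were in dpy-22 at 30.4, the apical junction gene ajm-1 at 26.7, sma-9 at 25.6 and nhr-25 at 22.0. Heterochronic, vulval and cell fate genes were hosts in 3 of 6, lin-14, lin-15A at 24.3 and sli-1 at 17.7, with 15 members at a median of 66.7. Of all the list genes only mom-1 hosted a reproducible member. These lists differ in gene length, with medians from 3.09 to 7.47 kb, and no list was tested against another.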

How the data were processed

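The data were the authors' peak lists in narrowPeak format, deposited on ce10 and ce11. Only the ce11 lists were used. The README files deposited beside them describe 1 unfiltered list of peaks and background for each replicate, 1 pooled list built from all 4 replicates and a control, and a thresholded list based on the irreproducible discovery rate (IDR). Aligner, peak caller and threshold were not given in the sources used here. In each list the deposited signal column holds the authors' enrichment value, which served only for ranking inside a list. The deposited −log10 column was read as −log10 of the q-value by the convention of the format. Since the lists contain no read counts, depth is unknown and no precision from depth can be given.

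Every pooled peak was 364 bp wide and none ended beyond a chromosome of WBcel235. Genes came from Ensembl release 115 and sequence from RefSeq, and coordinates are 1-based. Starts were those of protein-coding transcripts. Each summit got 1 class, tried in the order promoter, exon, intron, close to a non-coding gene (at most 1000 bp away) and intergenic. Motifs were searched on both strands within 50 bp of the summit and in windows centred 300 bp to either side. Overlap meant at least 1 bp. Shares have exact Clopper-Pearson intervals at 95%, which cover counting error only.

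Peaks of 1 list are not replicates, so tests ran over the 4 replicates alone, as two-sided exact sign-flip permutation tests. The 3 planned replicate comparisons and the added one on motif copies all have the same smallest p, so no adjustment was made. Biological replicates are as labelled, and whether they came from separate cultures is not given. Genes named are hosts or nearest genes of the 20 strongest members, up to 4 hosts from each of 8 gene lists holding 342 names, and the host genes with the most members, kept beyond 5 where tied. Other genes and the string GCGAAGGG were chosen after their values were seen. The members and lists were chosen with earlier results of these data known. Alternatives covered promoter windows of 500 and 2000 bp, overlap, numbers of strongest peaks, motif windows and each replicate left out. Python 3.11.15 with pandas 2.3.3, numpy 2.4.6, scipy 1.17.1 and matplotlib 3.10.9 was used, and the scripts were tested on simulated data.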

Additional observations from a re-analysis of the deposited data

Results flagged for a closer look

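Ranks of 17 of the 20 strongest members, those found in all 4 replicates, were checked for a replicate far from the other 3, as were 9 summary values over the replicates. The gap between the farthest replicate and its neighbour, divided by the whole range, passed Dixon's 95% critical value in 8 of these 26 checks, all of them ranks. Chance marks about 1 in 20 groups, and ranks are skewed values.

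Replicate 3 stood apart in 4 cases. The F55G7.5 peak ranked 1439 there against 1, 9 and 21 elsewhere. The ZK899.6 peak ranked 487, the K02D3.1 peak 484 and the sma-9 peak 1446. In each the other 3 replicates placed the peak in the top 200. Replicate 3 also had the shortest list.

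Other replicates stood apart in the rest. The gtr-1 peak ranked 8736 in replicate 4. The daf-12 peak ranked 9417 and the C30E1.4 peak 2931 in replicate 2. The F56C3.1 peak ranked 23567 in replicate 1. The cause was not tested for any of these.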

How the results depend on the processing

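Of 51 values under other settings, 44 were classed as the same, though some of these differed in size. A further 6 were classed as moved, and 1, the comparison with X promoter peaks, as reversed. Counting only the 55 strongest reproducible peaks left 10 members in place of 21. Against X promoter peaks, in place of autosomal peaks outside promoters, the difference in median percentile was −3.71 points. With overlap of 50% of the peak, 55 members were found in all 4 replicates in place of 115, and leaving out 1 replicate gave 154 to 389, the highest without replicate 3. Strong members numbered 6 and ranged from 7 to 9 with a replicate left out. The share of strongest members with the motif was 13.3% for the 30 strongest and 13% for the shorter CGCAGG, in place of 5%, with 10% for CGCGCAGGG with up to 1 mismatch and 2.33% for the 300 strongest. Leaving out 1 replicate moved the percentile difference between 1.04 and 1.59, the excess among the 500 strongest between 1.12 and 1.51, and the motif difference between 2.83 and 4.17 points. The motif difference was 10 points (SD 8.16) at the 30 strongest and 1.63 at the 300 strongest, in place of 3.63. The excess was 4.46 points at 100 and 0.635 at 1000 strongest peaks, in place of 1.26. No paired analysis was possible because there was 1 group, with no samples of another group to pair; the tests used compare values inside each replicate. Read depth is unknown, the control was not analysed here, and no peak-level error exists in the pooled list.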

Other observations

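In the 100 strongest members, the 6-base strings most often found within 50 bp of the summit relative to the flanks were AAGAGA, in 20 against a mean of 6.5, and CCTGCG, in 13 against 0.5. CCTGCG is the reverse complement of CGCAGG and so part of the recruitment core. In the 100 strongest autosomal peaks outside promoters, AAGAGA was in 20 against 17 and CCTGCG in 1 against 1. GGAGAA was in 18 of the members against 6, and in 12 of the autosomal peaks against 8. ATCGCG, which overlaps the motif's outer bases in several of the printed sequences, was in 11 of the members against 1 and in 3 of the autosomal peaks against 3.5. These strings were picked for their counts and carry no test. CGTCTC, already given above, was also among the most frequent, in 12 of the members against 1.5 and in 17 of the autosomal peaks against 4.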
